A study of Mus musculus with 6 samples.

Results

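The scavenger receptors followed here are Cd36, Scarb1, Msr1, Marco, Olr1, Stab1 and Stab2. They were taken as every array probe set whose annotation names 1 of these 7 symbols and no other gene, which gave 15 of 45101 probe sets, or 7 of the 18193 genes that have such a probe set. Whole mammary glands were profiled at involution day 2, that is 2 days after the pups were taken away, in 3 Rac1-/- and 3 WT mice, with 1 Affymetrix array per mouse and no pooling. The Rac1-/- mice (Nas496, Nas497 and Nas518) carried Rac1fx/fxYFP together with the WAPiCre transgene. The WT mice (Nas478, Nas483 and Nas484) were Rac1fx/fxYFP without Cre, so both groups carried floxed Rac1 and the YFP reporter, and the dams were matched for age. The whey acidic protein promoter switches Cre on in luminal epithelial cells from mid-pregnancy, so stromal and myoepithelial cells of the same gland keep Rac1, and no mice with Cre and intact Rac1 were arrayed. The comparison asks how the glands' receptors for dead cells, milk lipid and modified lipoproteins stood when Rac1, a small GTPase that drives the actin rearrangements of engulfment, was deleted in the luminal cells.

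Scavenger receptors are surface proteins that bind and take up a wide range of polyanionic and lipid ligands, among them apoptotic cells, oxidised lipoproteins, fatty acids and hyaluronan. They are grouped by structure. Class B holds Cd36 and Scarb1, class A holds the macrophage receptors Msr1 and Marco, class E holds Olr1, and class H holds the very large receptors Stab1 and Stab2. In the mammary gland Cd36 is best known from the secretory epithelium, where it takes up long-chain fatty acids and becomes a component of the milk fat globule membrane, while in involution dying alveolar cells and residual milk are cleared by neighbouring epithelial cells and later by macrophages. Stabilins are mostly receptors of sinusoidal and lymphatic endothelium and, for Stab1, of alternatively activated macrophages.

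In RefSeq (GRCm38.p6) all 7 receptors were found, Cd36 at chr5:17781690-17888959, Scarb1 at chr5:125277087-125341094, Msr1 at chr8:39543232-39642750, Marco at chr1:120474538-120505024, Olr1 at chr6:129479150-129507350, Stab1 at chr14:31139017-31168651 and Stab2 at chr10:86841194-87008038. The 250 bases before a transcript start were searched in the 5 receptors with an entry in the RefSeq promoter table for AGGTCA, the half-site bound by nuclear receptors, for the GC box GGGCGG, for the AP-1 motif TGANTCA, for TATAAA and for the STAT motif TTCNNNGAA, on both strands. The half-site occurred in 3 of the 5, those of Cd36, Olr1 and Stab2, and in 14% of 32851 promoters of the same length. These 3 windows are shown because they hold the half-site. The start used is that of the promoter table and not the outer end of the locus, so the Cd36 window lies inside the Cd36 locus and those of Olr1 and Stab2 overlap the ends of theirs. All lie on the minus strand and read 5′ to 3′, and capitals mark the half-site, the GC box or the AP-1 motif on either strand.
Cd36 chr5:17835897-17836146: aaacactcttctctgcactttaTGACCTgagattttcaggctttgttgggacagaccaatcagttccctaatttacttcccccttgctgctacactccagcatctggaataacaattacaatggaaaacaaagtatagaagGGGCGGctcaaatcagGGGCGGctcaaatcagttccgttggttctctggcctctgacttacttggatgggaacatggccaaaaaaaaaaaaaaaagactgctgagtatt
Olr1 chr6:129507166-129507415: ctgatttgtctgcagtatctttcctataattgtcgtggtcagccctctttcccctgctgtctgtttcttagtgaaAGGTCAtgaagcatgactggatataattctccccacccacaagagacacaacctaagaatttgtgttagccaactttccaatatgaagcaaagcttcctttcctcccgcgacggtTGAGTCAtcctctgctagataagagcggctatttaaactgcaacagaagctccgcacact
Stab2 chr10:87007943-87008192: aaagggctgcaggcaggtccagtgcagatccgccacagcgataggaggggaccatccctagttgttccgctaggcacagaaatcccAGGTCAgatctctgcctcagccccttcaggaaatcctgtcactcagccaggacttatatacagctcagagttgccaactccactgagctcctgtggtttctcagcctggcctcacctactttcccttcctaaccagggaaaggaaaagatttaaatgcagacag
The Cd36 window holds the half-site 228 bases before the start and the GC box at 109 and 93 bases, against a GC box in 32.7% of promoters. In the Olr1 window the half-site lies 175 bases and the AP-1 motif 60 bases before the start, against an AP-1 motif in 6.75% of promoters. The Stab2 window has the half-site alone, 164 bases before the start. TATAAA (12.4% of promoters) and the STAT motif (7.02%) were matched in none of the 5. A match of letters is a description and does not show that a factor binds there.

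No scavenger receptor passed the test between Rac1-/- and WT glands, and neither did any other probe set (0 of 45037 by limma at an adjusted p under 0.05, 0%, although 845 were higher and 979 were lower when p was left unadjusted at 0.05). Within that limit, on the brightest probe set of each gene, the class B receptors had the lowest means relative to WT. Cd36 and Scarb1 were both at 0.348 times the WT intensity, and the macrophage receptor Msr1 had a mean 1.78-fold the WT intensity. By gene, 3 receptors had a lower mean in Rac1-/- glands (Cd36, Scarb1 and Olr1) and 4 a higher one (Msr1, Marco, Stab1 and Stab2), with a median log2 fold change of 0.30, against 0.06 over all genes, of which 46.1% had a lower and 53.9% a higher mean. Of the 15 probe sets, 3 had all Rac1-/- mice below all WT mice, against 4.86% of all probe sets, and 1 had all above, against 4.59%. At an unadjusted p under 0.05, 3 of 15 were lower (background 2.17%) and 0 were higher (background 1.88%). The same 3 probe sets make up both lower counts, and Cd36 holds more than 1 of them. By gene, 2 of 7 lay below WT without overlap (background 4.21%) and 1 above (background 5.41%). At an unadjusted limma p under 0.05, 2 of the 7 genes were lower (background 1.52%) and 0 were higher (background 1.88%). All values below are log2 intensities after quantile normalization, differences are Rac1-/- minus WT on that log2 scale, and adjusted p-values are from limma with Benjamini-Hochberg adjustment over all 45037 probe sets.

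**Figure D1:**
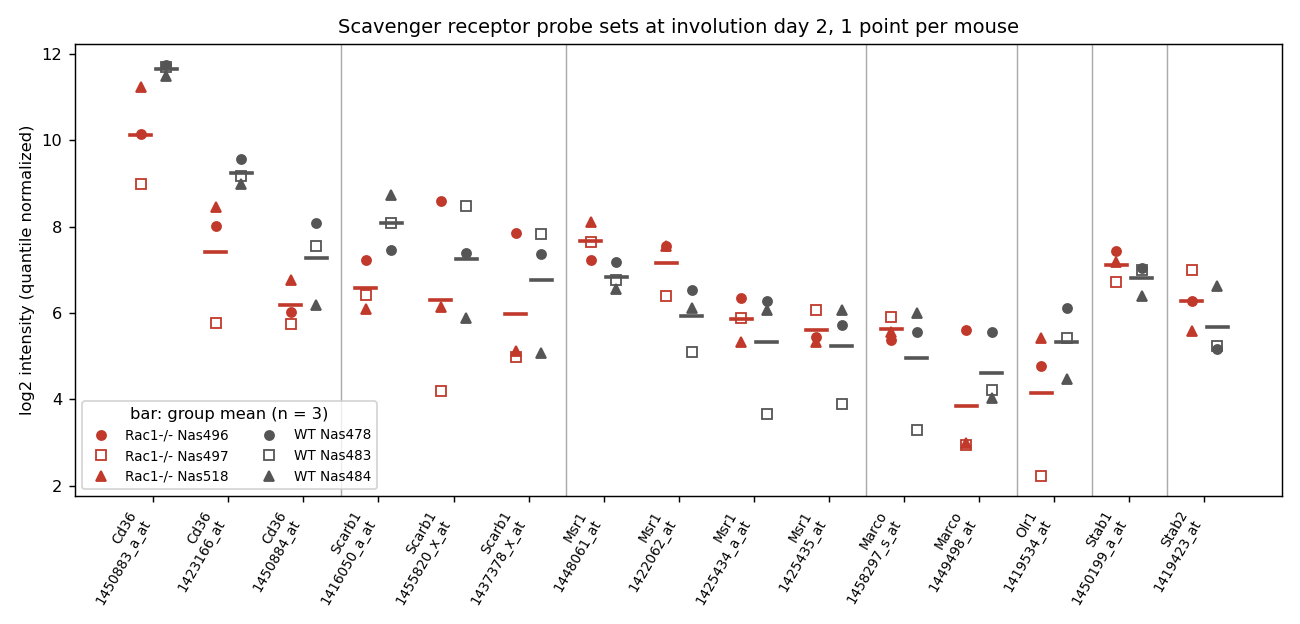
Log2 intensity (vertical axis) of the probe sets of the 7 scavenger receptors in each mouse, with Rac1-/- mice left of WT mice, points for mice and bars for the group means. The groups are apart on the bright probe sets of Cd36 and on 1 probe set each of Scarb1 and Msr1, and overlap on the others.

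Cd36, which binds apoptotic cells and oxidised lipids and imports long-chain fatty acids, was measured by 3 probe sets. On the brightest, 1450883_a_at, the log2 intensities were 10.14, 8.99 and 11.23 in the Rac1-/- mice Nas496, Nas497 and Nas518, against 11.75, 11.69 and 11.49 in the WT mice Nas478, Nas483 and Nas484. All Rac1-/- mice were below all WT mice, and the Rac1-/- mice were far apart from one another while the WT mice lay close together (10.12 ± 1.12 in Rac1-/- and 11.65 ± 0.14 in WT, SD, n = 3 each). The log2 fold change was -1.52 (SE 0.62, 95% interval -2.96 to -0.09), with a limma adjusted p of 0.948. As deposited, before quantile normalization, the same probe set read 1367, 285 and 1619 in the Rac1-/- mice and 5078, 4389.5 and 2306 in the WT mice, and the groups did not overlap there either.

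The other Cd36 probe sets leaned the same way. On 1423166_at the log2 intensities were 8.02, 5.76 and 8.46 in Rac1-/- mice and 9.56, 9.18 and 9.0 in WT mice, again with no overlap, a log2 fold change of -1.83 (SE 0.73, 95% interval -3.51 to -0.14) and a limma adjusted p of 0.948. On 1450884_at they were 6.02, 5.73 and 6.77 in Rac1-/- mice and 8.08, 7.55 and 6.18 in WT mice. Here the WT mouse Nas484 fell between the Rac1-/- mice Nas496 and Nas518, and the log2 fold change was -1.09 (SE 0.62). Over the 6 arrays the bright pair of probe sets kept the same order of mice (Pearson r 0.97, Spearman rho 1.0), and they correlated with the remaining one at r 0.77 and 0.75. Nas497 had the lowest value on all 3. Of the 15 probe sets, 6 kept their sign under every setting tried, among them all 3 of Cd36. Without Nas497 the log2 fold change of the brightest probe set was -0.96 and that of 1423166_at was -1.05, and with the 3′ to 5′ difference of the actin control probe sets as a covariate they were -0.29 and -0.10. That actin measure did not overlap between the groups, so a fit with it cannot tell it apart from genotype. Other settings gave larger differences for the brightest probe set, -2.12 without Nas518, -2.12 without normalization between arrays and -2.59 with arrays scaled to a common median. Cd36 is one of the receptors that the study listed from these same arrays, so its direction here is not independent evidence.

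Scarb1, the receptor that takes cholesteryl esters from HDL, had a different order of mice from Cd36. On 1416050_a_at the log2 intensities were 7.22, 6.41 and 6.09 in the Rac1-/- mice Nas496, Nas497 and Nas518 and 7.46, 8.09 and 8.73 in the WT mice Nas478, Nas483 and Nas484. Again all Rac1-/- mice were below all WT mice, with the narrowest gap between Nas496 and Nas478, and both groups were spread to a similar extent (6.57 ± 0.58 in Rac1-/- and 8.09 ± 0.63 in WT, SD, n = 3 each). The log2 fold change was -1.52 (SE 0.55, 95% interval -2.78 to -0.26), with a limma adjusted p of 0.948. On this probe set it lay between -1.88 and -1.25 under every setting tried, including -1.59 with the actin covariate. Deposited intensities were 149, 108 and 77.3 in Rac1-/- mice and 195, 324 and 370.2 in WT mice.

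The remaining probe sets of Scarb1 did not follow the first. Both end in _x_at, the manufacturer's mark for probes that can match other transcripts, so their values are uncertain. On 1455820_x_at the log2 intensities were 8.58, 4.20 and 6.15 in Rac1-/- mice and 7.39, 8.48 and 5.89 in WT mice. On 1437378_x_at they were 7.84, 4.99 and 5.12 in Rac1-/- mice and 7.36, 7.83 and 5.07 in WT mice. In both the groups overlapped, with Nas496 above the other Rac1-/- mice, Nas484 below the other WT mice and Nas497 below all others, though by little on 1437378_x_at. The log2 fold changes of -0.94 (SE 1.12) and -0.77 (SE 0.98) were smaller than their errors. Over the 6 arrays this pair correlated at r 0.92 with each other but only at 0.37 and 0.29 with 1416050_a_at. Averaging all probe sets of Scarb1 gave a log2 fold change of -1.08 (SE 0.75).

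**Figure D2:**
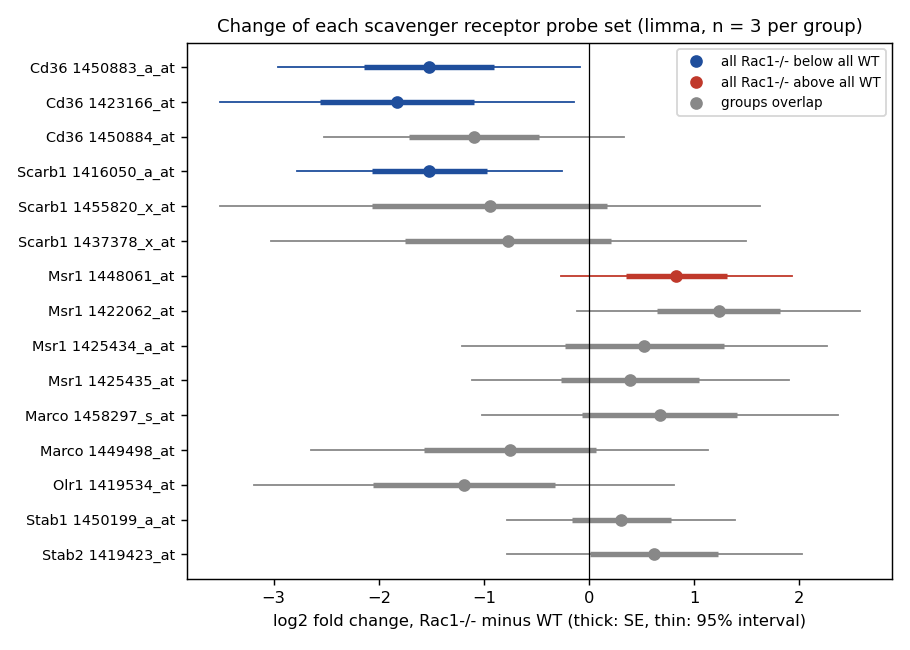
Log2 fold change (Rac1-/- minus WT, horizontal axis) of the 15 scavenger receptor probe sets with 95% intervals from limma. The intervals of 3 probe sets, 2 of Cd36 and 1 of Scarb1, lie below 0, and none has an adjusted p under 0.05.

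In class A the receptor with the clearest values was Msr1, the macrophage receptor for acetylated and oxidised LDL that also binds apoptotic cells. Its probe set 1448061_at had log2 intensities of 7.24, 7.64 and 8.12 in the Rac1-/- mice Nas496, Nas497 and Nas518 and 7.18, 6.75 and 6.56 in the WT mice Nas478, Nas483 and Nas484. All Rac1-/- mice were above all WT mice, although Nas496 exceeded Nas478 by little. The log2 fold change was 0.83 (SE 0.48, 95% interval -0.27 to 1.93), with a limma adjusted p of 0.948, and it came down to 0.25 when the arrays were scaled to a common median. On 1422062_at the log2 intensities were 7.54, 6.39 and 7.55 in Rac1-/- mice and 6.54, 5.11 and 6.13 in WT mice. Only Nas497 and Nas478 overlapped there, with a log2 fold change of 1.24 (SE 0.58). It was 0.77 without Nas483 and 2.02 without Nas484 and Nas497, the arrays at the negative end of the first principal component.

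The dim Msr1 probe sets gave little. On 1425434_a_at the log2 intensities were 6.35, 5.88 and 5.34 in Rac1-/- mice and 6.27, 3.66 and 6.06 in WT mice, and on 1425435_at they were 5.44, 6.08 and 5.34 in Rac1-/- mice and 5.72, 3.89 and 6.07 in WT mice. In both, Nas483 alone was low and the other WT mice lay among the Rac1-/- mice. The log2 fold changes of 0.53 (SE 0.75) and 0.39 (SE 0.66) changed sign without Nas483, to -0.29 and -0.26.

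Marco, the class A receptor of macrophages that binds bacteria and particles, was dim on both of its probe sets, whose means stood at the percentiles 30.6 and 9.01 of all probe sets. On 1458297_s_at the log2 intensities were 5.38, 5.92 and 5.57 in Rac1-/- mice and 5.56, 3.29 and 6.0 in WT mice. On 1449498_at they were 5.60, 2.95 and 3.00 in Rac1-/- mice and 5.57, 4.21 and 4.04 in WT mice. The groups overlapped on both, the log2 fold changes had opposite signs (0.67 with SE 0.74, and -0.75 with SE 0.82), and the probe sets did not rank the mice alike (rho -0.66 over 6 arrays). Without Nas483 the first of them was -0.15. No direction can be given for Marco.

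Olr1, the lectin-like receptor for oxidised LDL known from endothelium, has a single probe set here, also dim (percentile 16.6). Its log2 intensities were 4.76, 2.23 and 5.41 in the Rac1-/- mice Nas496, Nas497 and Nas518 and 6.10, 5.41 and 4.47 in the WT mice Nas478, Nas483 and Nas484. The low value of Nas497 set the Rac1-/- mean apart, and the other Rac1-/- mice lay within the WT range. The log2 fold change was -1.19 (SE 0.87, 95% interval -3.19 to 0.81), with a limma adjusted p of 0.948, and was -0.26 without Nas497. With the actin covariate it was 0.95.

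The class H receptors had slightly higher means in Rac1-/- glands, within their spread. For Stab1, which takes up the matrix protein SPARC and modified LDL, the log2 intensities on 1450199_a_at were 7.44, 6.72 and 7.19 in Rac1-/- mice and 7.04, 6.99 and 6.40 in WT mice. The groups overlapped through Nas497, and the log2 fold change was 0.30 (SE 0.47, 95% interval -0.78 to 1.39) with a limma adjusted p of 0.962. It was 0.10 without Nas484, 0.14 without Nas496 and 0.56 without Nas497, and -0.10 when the arrays were scaled to a common median, a scaling that moved the median of all genes to -0.12.

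For Stab2, the receptor that clears hyaluronan from the circulation, the log2 intensities on 1419423_at were 6.28, 7.0 and 5.59 in Rac1-/- mice and 5.16, 5.23 and 6.62 in WT mice. A single WT mouse, Nas484, lay within the Rac1-/- range, and the others lay below it. The log2 fold change was 0.62 (SE 0.61, 95% interval -0.79 to 2.03), with a limma adjusted p of 0.948. It was 1.15 without Nas484, 0.28 without Nas497, and -0.36 with the actin covariate.

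**Figure D3:**
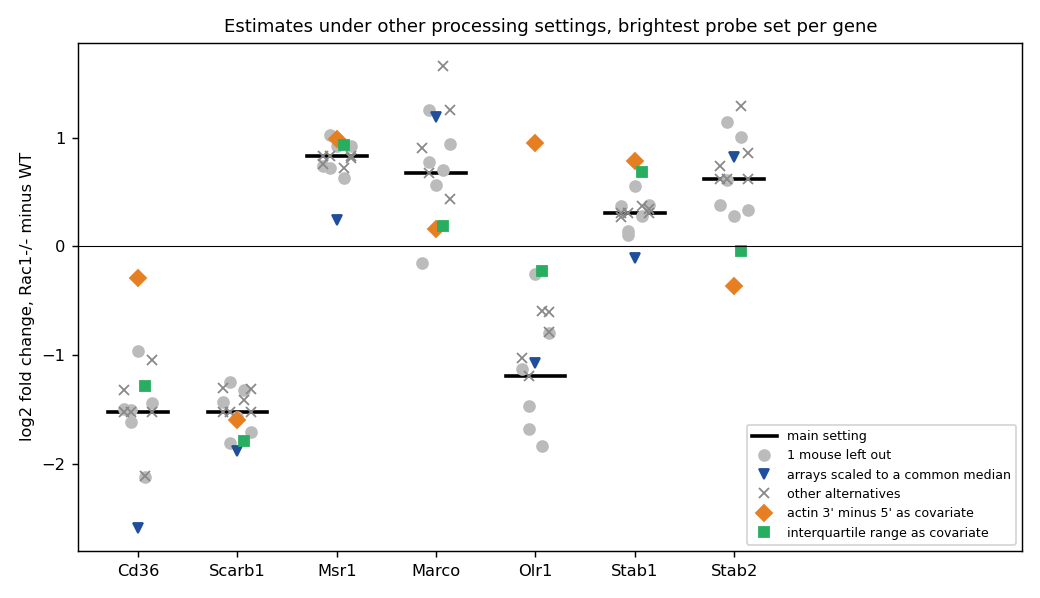
Log2 fold change (Rac1-/- minus WT, vertical axis) of the brightest probe set of each scavenger receptor. A black bar gives the value in the text, and points give the other settings fitted by probe set. Settings that handle the probe sets of a gene differently are not drawn. All points of Cd36 and Scarb1 lie below 0 and all of Msr1 above it, while Marco, Olr1, Stab1 and Stab2 cross 0 in at least 1 setting.

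Among themselves the receptors fell into no single pattern over the 6 mice, which include both groups, so each correlation also holds the difference between groups. Taking the brightest probe set of each gene, Scarb1 and Msr1 ran exactly opposite (r -0.98, rho -1.0), from Nas518 with the lowest Scarb1 and the highest Msr1 to Nas484 with the reverse. Cd36 and Olr1 went together (r 0.88, rho 0.71), both lowest in Nas497, and Stab2, highest in Nas497, ran against Olr1 (r -0.89) and Cd36 (r -0.77). Cd36 and Scarb1, of the same class, correlated at r 0.55.

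The genes most like each receptor over the 6 arrays, among 9096 candidate genes of higher mean level, are given by name only. For Cd36 they were Magt1, Pdpk1 and Irgm1 (r 0.99, 0.986 and 0.985), and for Scarb1 Plxnb2, Hinfp and Selenon (r 0.992, 0.983 and 0.983). Msr1 was most like Zzz3, Rap2c and Tmem168 (r 0.98, 0.98 and 0.97) and Marco most like Nanp, Phka1 and Dhx29 (r 0.989, 0.982 and 0.974). Olr1 went with Stam, Ube3a and Rbm48 (r 0.997, 0.996 and 0.993), Stab2 with Npepl1, Tspan11 and Urb1 (r 0.993, 0.991 and 0.991). Stab1 was most like H2-Aa, a chain of the antigen-presenting MHC class II molecule (r 0.995, rho 1), followed by Sap130 and Scn7a (r 0.987 and 0.982). Between 12 (Msr1) and 147 (Olr1) candidates exceeded r 0.95 over these 6 arrays.

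Other genes of the receptors' pathways were counted in the same way, and none passed the adjusted threshold. Of 16 other scavenger receptors measured, 8 had a higher and 8 a lower mean in Rac1-/- glands (median log2 fold change -0.0043). That median was between 0.05 and 0.31 when single mice were left out. It was 0.46 with the actin covariate and -0.03 with arrays scaled to a common median. All Rac1-/- mice were above all WT mice in 2 of these receptors, against 5.41% of all genes. One was Scara5, a ferritin receptor, with log2 intensities of 7.58, 7.65 and 8.10 in Rac1-/- mice and 7.03, 6.80 and 6.69 in WT mice (log2 fold change 0.94, SE 0.44). The other was Cxcl16, a membrane chemokine that also binds oxidised LDL, with 9.46, 9.83 and 8.68 in Rac1-/- mice and 8.05, 8.61 and 8.38 in WT mice (log2 fold change 0.97, SE 0.50). Clec7a, the macrophage receptor for fungal glucan, differed by 1.22 on the log2 scale (SE 0.66) with overlapping groups.

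Around the fatty acid uptake of Cd36, 9 of 14 measured genes of fatty acid uptake and lipolysis had a lower mean in Rac1-/- glands (median -0.19), and 4 of them lay below WT in all mice, against 4.21% of all genes. At an unadjusted p under 0.05, 4 were lower (background 1.52%) and 1 was higher (background 1.88%). Cidea, a lipid droplet protein needed for milk lipid secretion, had log2 intensities of 7.46, 6.97 and 5.39 in Rac1-/- mice and 9.03, 9.06 and 9.24 in WT mice (log2 fold change -2.50, SE 0.61). Fabp3, a cytosolic fatty acid carrier, had 9.0, 9.48 and 7.95 in Rac1-/- mice and 10.66, 10.67 and 11.90 in WT mice (-2.27, SE 0.60). Plin2, the coat protein of lipid droplets, had 11.19, 10.45 and 11.12 in Rac1-/- mice and 12.49, 12.64 and 11.87 in WT mice (-1.41, SE 0.48). As for Cd36, the groups did not overlap in any of these 3 genes. The fatty acid transport protein Slc27a4 was the other gene of this kind (-2.27, SE 0.78), and the related Slc27a3 was the 1 that was higher (2.14, SE 0.78, groups overlapping), both named after their values were seen. The median of the list was -1.24 with arrays scaled to a common median, -0.76 without normalization between arrays and -0.64 with the actin covariate, and between -0.51 and -0.18 when single mice were left out.

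Of 14 genes of sterol efflux and lipid nuclear receptors, 11 had a lower mean in Rac1-/- glands (median -0.28, and -0.84 with arrays scaled to a common median), against 46.1% of all genes, and 2 did so without overlap, against 4.21%. These were Lipa, the lysosomal lipase that frees cholesterol from lipoproteins taken up by scavenger receptors, with log2 intensities of 9.66, 9.49 and 9.25 in Rac1-/- mice and 9.98, 10.81 and 12.33 in WT mice (-1.57, SE 0.65), and Rxrb, a partner of lipid-sensing nuclear receptors (-0.78, SE 0.44). Abca1, which exports cholesterol, differed by -0.88 (SE 0.51) with overlapping groups. Among 15 adaptors and kinases of scavenger receptor signalling, 9 had a lower and 6 a higher mean (median -0.33). That median was -0.02 without Nas497 or without Nas518, 0.09 with the actin covariate and -0.73 with arrays scaled to a common median. Cd9, a tetraspanin that associates with Cd36, was below WT in all Rac1-/- mice (-0.74, SE 0.47), while Fyn (-0.98, SE 0.69) and Syk (0.80, SE 0.57), kinases downstream of Cd36, overlapped between groups. Tlr2, a co-receptor of Cd36 named after its values were seen, lay above WT in all Rac1-/- mice (0.53, SE 0.44).

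**Figure D4:**
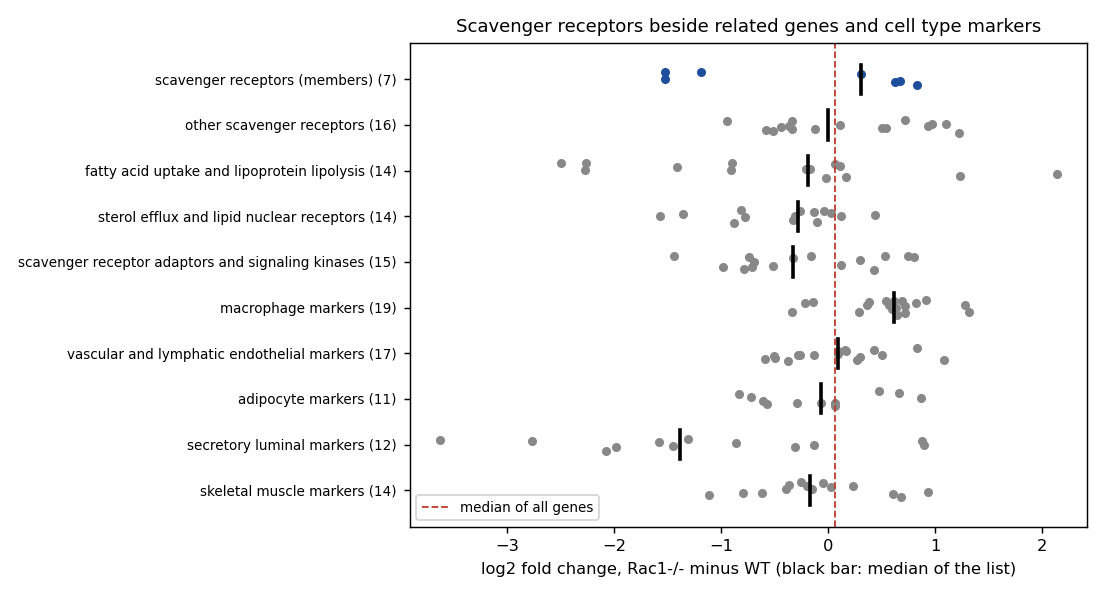
Log2 fold change (Rac1-/- minus WT, horizontal axis) of each measured gene, 1 point per gene, in the scavenger receptors and in the lists of related genes and cell type markers, with the list medians marked. The medians run from -1.38 for secretory luminal markers to 0.62 for macrophage markers, and that of the 7 scavenger receptors is 0.30.

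Markers of the cells that can carry these receptors were counted beside them, and none passed the adjusted threshold. In a whole gland, fewer cells of a type and less RNA per cell cannot be told apart. Of 12 secretory luminal markers 10 had a lower mean in Rac1-/- glands (median -1.38), 6 of them without overlap, against 4.21% of all genes, as did Cd36 and Scarb1. The median was -2.65 under common-median scaling and -0.83 under the actin covariate. Glycam1 (-3.62, SE 0.52), Wap (-2.77, SE 0.47) and Lalba (-2.07, SE 0.54), all milk protein genes, had the smallest p in this list, Csn2 had -0.86, and the luminal keratins Krt8 (0.87) and Krt18 (0.90) were the exceptions. The mean log2 level of the list was 11.27 to 11.96 in Rac1-/- mice and 12.65 to 12.87 in WT mice. Its part in the values of Cd36 and Scarb1 was not tested.

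Macrophage markers lay the other way. Of 19 measured, 16 had a higher mean in Rac1-/- glands (median 0.62), against 53.9% of all genes, and 2 did so without overlap, against 5.41%. The mean log2 level of the list was 7.60 to 8.46 in Rac1-/- mice and 7.28 to 7.71 in WT mice. Fcer1g (1.31, SE 0.58), Ctss (1.28, SE 0.74) and Lyz2 (0.82, SE 0.49) had the smallest p in the list, C1qa (0.63, SE 0.46, named after its values were seen) was with Fcer1g the other gene without overlap, and the defining markers Adgre1 and Csf1r had log2 fold changes of 0.72 (SE 0.53) and 0.65 (SE 0.62) with overlapping groups. Stab1 ranked the 6 mice exactly as the mean of this list did, lowest in Nas484 and highest in Nas496. Msr1 did not, being highest in Nas518 and higher in Nas497 than in Nas496. The part of macrophage RNA in the values of Msr1, Marco and Stab1 was not tested. The median of the list was -0.10 when the arrays were scaled to a common median, whereas it was 1.12 when the actin covariate was used.

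For the receptors of endothelium, Olr1 and Stab2, the corresponding markers were divided. Of 17 vascular and lymphatic endothelial markers 10 had a higher and 7 a lower mean (median 0.09), with a mean log2 level of 6.58 to 6.87 in Rac1-/- mice and 6.49 to 6.94 in WT mice. The endothelial median was 0.39 without Nas484, -0.05 without Nas483 and -0.33 with the actin covariate, so its sign is not settled. Eng (1.08), Pdpn (0.83), Pecam1 (0.15) and Lyve1 (0.17) had higher means, and Tie1 (-0.59) and Cdh5 (-0.50) lower ones. Tie1 was the 1 gene of this list without overlap, against 4.21% of all genes. Adipocytes, which also express Cd36, gave a median of -0.06 over 11 markers (mean log2 level 8.33 to 9.46 in Rac1-/- mice and 8.71 to 9.14 in WT mice), with Adipoq at 0.47, Retn at 0.66, Gpd1 at -0.72 and Pnpla2 at -0.84. That median was -0.51 without Nas496, 0.36 without Nas497, -0.68 under common-median scaling and 0.54 under the interquartile range covariate, so its sign is not settled. Skeletal muscle, another tissue with Cd36, gave a median of -0.17 over 14 markers, 9 with a lower and 5 with a higher mean. The mean log2 level of these markers was 6.29 to 7.75 in Rac1-/- mice and 6.21 to 7.69 in WT mice. Myl1 was at 0.93, Actn3 at 0.68, Ckm at 0.23 and Acta1 at -1.11. The muscle median was -0.61 without Nas496 and 0.27 without Nas518, so its sign is not settled either. No defining marker measured was at the floor of the scale in any mouse.

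**Figure D5:**
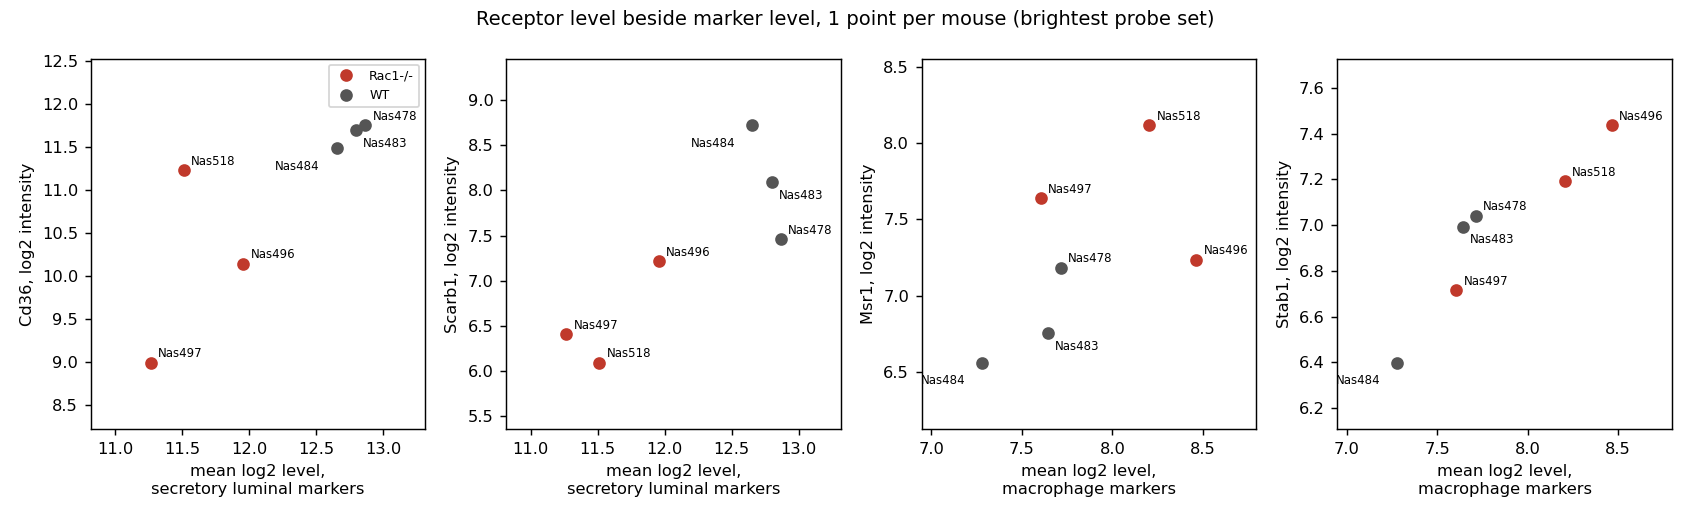
Log2 intensity of scavenger receptors (vertical axes) against the mean log2 level of a marker list (horizontal axes) in each mouse, with Rac1-/- and WT mice in different colours. The Rac1-/- and WT mice are apart along the secretory list and overlap along the macrophage list, along which Stab1 keeps the same order of mice.

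The arrays themselves also differed. The actin control probe sets, 3′ minus 5′ on the log2 scale, lay between -1.24 and -0.30 in Rac1-/- mice and between -0.17 and 0.048 in WT mice, with no overlap, and Nas497, the mouse with the lowest Cd36 and Olr1, had the most negative value. Because the groups are apart on it, this measure cannot be told apart from genotype here. The interquartile range of the deposited log2 intensities was 1.23 to 1.98 in Rac1-/- mice and 1.42 to 2.85 in WT mice, and a first component that held 43.6% of the variance ran from Nas497 and Nas484 at one end to Nas478 and Nas483 at the other. Without Nas497 and Nas484 1 receptor probe set was lower and 1 higher at an unadjusted p under 0.05, beside 1690.0 lower and 1703 higher among all 45037 probe sets, and the same 3 genes of 7 had a lower mean. Rac1 had log2 intensities of 9.51, 9.01 and 9.84 in Rac1-/- mice and 9.31, 9.50 and 8.97 in WT mice on one probe set, and 8.77, 8.34 and 8.14 in Rac1-/- mice and 8.74, 9.0 and 9.89 in WT mice on another, overlapping on both. A very dim probe set of Rac1 with Nas518 at the floor was not compared. Which exons Cre removes is not stated in any source used here, and so these probe sets may or may not lie in the deleted stretch.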

How the data were processed

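RNA of the inguinal mammary gland of 3 Rac1-/- and 3 WT mice, separate animals per the labels, was amplified by the authors with a kit for small quantities of low-quality RNA, hybridized to Affymetrix mouse GeneChip arrays and checked in Expression Console. The authors deposited a linear intensity per probe set. How probes were summarised and arrays normalized, or which test was run, was not given in the sources used here. On each array the mean of the deposited intensities without the top and bottom 2% was 100 and the medians differed (40.6 to 88.0), so the arrays had been scaled singly and not quantile normalized. No 2 arrays were identical (0 pairs), and 0 value columns went unused. Precision is limited by the number of arrays.

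Intensities were quantile normalized, set to at least 1 (82 to 1151 values per array lay below 1 before normalization), taken to log2 and, without 64 control probe sets, compared with lmFit and eBayes (limma 3.58.1, R 4.3.3), with Benjamini-Hochberg adjustment over 45037 probe sets and a threshold of 0.05. An exact permutation test of 3 against 3 cannot go below 0.1. Of the probe sets, 34958 name 1 gene, 932 several and 9211 none in the platform annotation. For counts by gene, each gene took its probe set with the highest mean. The receptors and gene lists were chosen with earlier results of these data known. Named are every receptor probe set, the 3 genes of each list with the smallest p, the defining markers, the 3 genes most like each receptor by Pearson r, and Rac1. Scara5, Cxcl16 and other list genes fall under this rule, and the luminal keratins are defining markers. Some genes of the lists are not reported here. Promoter sequences are from RefSeq.

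On simulated data for this comparison (45037 probe sets), 1 of 50 probe sets with a log2 change of 2 was found at the adjusted threshold, 27 of 50 with 4, 37 of 50 with 6 and 46 of 50 with 8, with 2 false calls, so a miss does not show that a receptor was equal in both groups. The noise was drawn independently for each probe set, and all changes were upward in Rac1-/-. Differences shared across an array were not simulated, so these rates may not hold for the real arrays. Alternatives left out mice, changed the scaling, floor, weights or prior, added an array measure as a covariate, or handled probe sets of a gene differently.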

Additional observations from a re-analysis of the deposited data

How the results depend on the processing

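Over 18 settings no scavenger receptor probe set passed the adjusted threshold (smallest limma adjusted p 0.507), and 222 of 241 estimates kept their sign. That count includes estimates that could not change. The prior with a trend, the restriction to probe sets above the median mean and the fit over genes leave each log2 fold change as it was. The 3 probe sets of Cd36, 1416050_a_at of Scarb1, and 1448061_at and 1422062_at of Msr1 kept their sign in every setting, and the other 9 probe sets did not. The cause of the reversals was not tested. No paired analysis was possible because no label pairs a mouse of one group with a mouse of the other. With 3 mice a group, only very large differences can be called, and the dim probe sets of Marco, Olr1 and Msr1 shifted most when Nas483, Nas496 or Nas497 was left out.

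Leaving out each mouse in turn gave log2 fold changes of -2.04 to 0.11 for Scarb1 1455820_x_at (0.11 without Nas497), -0.29 to 0.95 for Msr1 1425434_a_at, -0.26 to 0.85 for Msr1 1425435_at and -0.15 to 1.26 for Marco 1458297_s_at, the lowest of the last 3 without Nas483. It gave 0 to 3 receptor probe sets lower and 0 to 1 higher at an unadjusted p under 0.05 (0 lower without Nas497 or Nas483, 1 without Nas478 or Nas484), and 442 to 2435 higher and 502 to 1561 lower over all probe sets (540.0 higher without Nas518, 558 without Nas478 and 554 without Nas483, where 564 were lower). The median of the 7 genes was -0.15 without Nas483. With the actin covariate, Scarb1 1455820_x_at had 1.30, Scarb1 1437378_x_at 0.43, Msr1 1425435_at -0.26, Marco 1449498_at 0.10, Olr1 0.95 and Stab2 -0.36. There 0 receptor probe sets were lower and 1 higher, beside 1410 lower and 1087 higher over all probe sets. With the interquartile range as covariate, Scarb1 1455820_x_at had 0.56, Scarb1 1437378_x_at 0.75, Msr1 1425435_at -0.015, Marco 1449498_at 0.26 and Stab2 -0.040, and the median of the 7 genes was -0.040. In that setting 1 receptor probe set was lower and 0 higher, beside 1060 lower and 1009 higher over all probe sets. Scaling to a common median gave -0.10 for Stab1 and for the median of the 7 genes. Without normalization between arrays Marco 1449498_at had 0.20, and 1 receptor probe set was higher and 3 were lower. Over all probe sets 1588 then passed higher and 407 passed lower when p was left unadjusted (79.6% higher, against 46.3% with quantile normalization). Array weights gave 1799 higher and 1662 lower over all probe sets, and 1 higher and 4 lower among the receptors. A robust prior with a trend gave 812 higher and 889 lower over all probe sets, and 1 higher and 3 lower among the receptors. Without Nas484 and Nas497 there were 1703 higher and 1690 lower over all probe sets, and 1 each among the receptors. Among probe sets above the median mean there were 375 higher and 520 lower, and 1 receptor probe set was higher and 3 were lower. Averaging the probe sets of a gene gave -0.041 for Marco and for the median of the 7 genes, and leaving out _x_at and _s_at sets gave -0.75 for both. With that averaging Cd36 was at -1.48, Olr1 at -1.19 and Scarb1 at -1.08, so Scarb1 no longer lay below Olr1.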
